A study of Mus musculus with 16 samples.

Results

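The quadriceps of 4 mice with a transected anterior cruciate ligament (ACL), a stabilizing ligament of the knee, were compared between limbs while the mice drank a placebo. The tissue is the thigh muscle that extends the knee, and its total RNA was sequenced. The 8 libraries were chosen by their labels from the 16 libraries of the series: 4 injured quadriceps, labelled as ACL transected, and 4 healthy quadriceps. The placebo was 0.5% sucrose in the drinking water over the 7 days that followed the surgery. The other 8 libraries came from mice that drank a CSF1-R inhibitor at 40 mg/kg for the same time, again 4 injured and 4 healthy. Strain, genotype, sex and age are not given in the sources used here. The library names join a left and a right limb, and in each placebo animal the right limb is the injured one. A shared name was read as 1 animal, although the design text describes muscle prior to and following transection. On that reading the healthy quadriceps is the other limb of an operated mouse, and no unoperated animal enters the comparison. Side and injury cannot be told apart. Libraries are named here by limb and animal, from animal 1 to animal 4.

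Muscle fibres are controlled by motor neurons, and the acetylcholine receptor that receives their signal is kept at the neuromuscular junction while the nerve is active. When nerve input or use is lost, fibres are known to make receptor subunits and the transcription factor myogenin again. Damaged muscle is cleared by monocytes and macrophages, while satellite cells divide, fuse and make embryonic forms of the contractile proteins before the adult forms return. Mesenchymal cells between the fibres, the fibro-adipogenic progenitors, lay down matrix in the same period.

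Levels are given as CPM, the count of a gene relative to a library size scaled by TMM, a method that discounts a few dominant genes. Differences are injured minus healthy on the log2 scale with their standard error (SE), from edgeR's quasi-likelihood test with Benjamini-Hochberg adjustment over 15411 genes. A gene was called at an adjusted p under 0.05. Each of the 8 libraries held 20976639 to 27132379 counts, so that 3 counts, used as a floor, correspond to 0.1106 to 0.143 CPM. Such floors cover counting error only. The labels call the samples of a group biological replicates. The p-values rest on the spread within groups over all 16 libraries, those with inhibitor included, and the main test does not pair the limbs of an animal. Quality weights from limma-voom, lower for libraries that vary more, were 0.31 to 1.34 with placebo and 1.16 to 1.84 with inhibitor. The SE and p-values may therefore be too small for the placebo libraries. Markers of the fibres themselves were abundant in every library: the 10 genes of a fibre identity list summed to 102000 to 163000 CPM in injured and 122000 to 182000 CPM in healthy quadriceps. Since whole tissue was sequenced, fewer cells of a type and less RNA per cell cannot be told apart.

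The libraries did not fall into an injured and a healthy set. The leading component of log2 CPM held 51.8% of the variance and put injured 2 and injured 3 at scores of 78.4 and 64.4. Healthy 4 stood on the same side at 47.6, and the other 5 libraries lay between -68.8 and -26.7. The genes at the high end of this component included Postn, a matrix protein of active fibroblasts. Postn was at 9.38, 436, 215 and 7.14 CPM in the injured limbs of animals 1 to 4, against 3.04, 9.49, 9.57 and 551 CPM in their healthy limbs. Trem2, a receptor of lipid-handling macrophages, was also at the high end, with 0.447, 16.9, 13.0 and 0.0839 CPM in injured and 0.0389, 0.316, 0.125 and 6.66 CPM in healthy limbs. At the low end were genes of fat cells such as Adrb3, a beta-adrenergic receptor, with 14.4, 0.545, 1.2 and 15.8 CPM in injured and 15.7, 8.95, 0.791 and 0.794 CPM in healthy limbs.

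**Figure D1:**
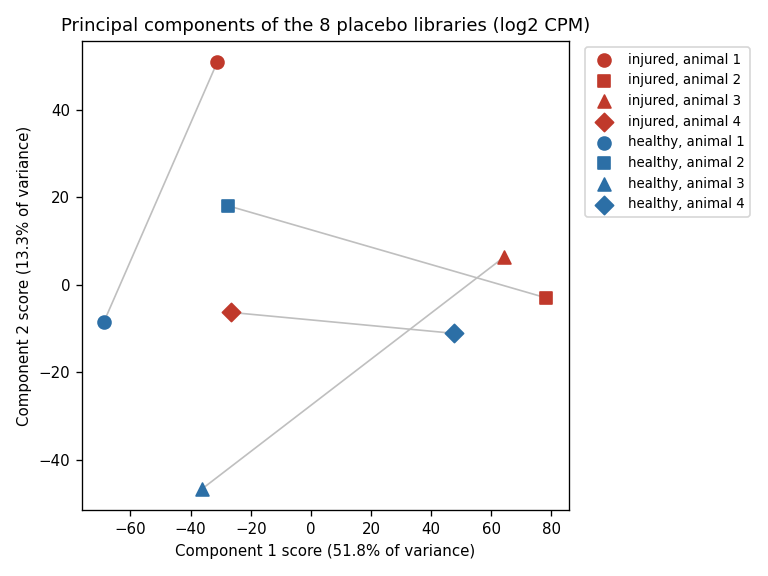
Scores of the 8 placebo libraries on the leading components of log2 CPM over the tested genes, with the share of variance on each axis. Each point is a library, red for injured and blue for healthy, and a line joins the limbs of an animal. Injured 2 (78.4), injured 3 (64.4) and healthy 4 (47.6) lie at the right, and the line of animal 4 runs the other way from those of animals 1 to 3.

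Animal 4 differed from the other animals in the direction of its limbs. Across the 15411 genes, the limb differences of animals 2 and 3 had a Pearson correlation of 0.56, those of animals 1 and 3 of 0.40 and those of animals 1 and 2 of 0.18. The correlations of animal 4 with animals 1, 2 and 3 were -0.24, -0.57 and -0.50. Genes are not independent replicates, and these correlations only describe the libraries. In animals 1, 2 and 3, 1438, 2118 and 2327 genes were over 2-fold higher in the injured limb and 579, 885 and 484 were over 2-fold lower. In animal 4, 597 genes were over 2-fold higher and 1470 over 2-fold lower. Whether the limbs of animal 4 carry the right labels was not tested, and all 4 animals were kept in the comparison.

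Injured 2, injured 3 and healthy 4 were also high in a gene known from the joint lining. Prg4, the gene of the joint lubricant lubricin, had 12.8, 220, 286 and 6.55 CPM in the injured limbs of animals 1 to 4, against 3.97, 7.32, 19.5 and 251 CPM in their healthy limbs. Acan, the main proteoglycan of cartilage, did not pass the filter on low counts, with 0, 444, 26 and 0 counts in injured and 0, 0, 0 and 277 counts in healthy limbs. The 9 tested genes of a list of joint lining and cartilage summed to 227 to 489 CPM in injured and 231 to 477 CPM in healthy limbs. The tissue source of this RNA and its part in the differences below were not tested. A fit without the libraries high in Prg4 (injured 2, injured 3, healthy 4 and healthy inhibitor 1) is given beside each gene list described. With placebo it keeps injured 1 and 4 against healthy 1, 2 and 3. The placebo libraries it leaves out are also those at the high end of the leading component. Joint RNA therefore cannot be told apart in this fit from the other genes of that component.

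No gene was called across the transcriptome. Of 15411 genes, 0 passed (0%), and the smallest adjusted p from edgeR was 0.641. At an unadjusted p under 0.05, 710 genes (4.61%) were higher in injured quadriceps and 406 (2.63%) were lower. The same edgeR test in the 8 placebo libraries alone gave 417 genes at this level and a smallest adjusted p of 0.926. With the limbs of each animal as a block, 888 genes reached this level in all 16 libraries and 234 in the 8 placebo libraries alone, and again 0 genes were called. Limma-voom called 0 genes and DESeq2 called 2, both higher in injured quadriceps, which were Chrna1 and Apod at an adjusted p of 0.0468 each. The median log2 difference of all genes was 0.01, with 90% of genes between -0.39 and 0.99, and 51.1% lay above 0.

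The direction of the differences went with the level of the gene. Of 869 genes whose mean log2 CPM was at least 7, 16.3% were higher in injured quadriceps, against 62.8% of 3545 genes under 1. Genes of the contractile apparatus and of mitochondria lead the abundant class. Atp2a1, the calcium pump of fast fibres, was at 31100, 24600, 22700 and 39000 CPM in injured and 43400, 32300, 40300 and 32400 CPM in healthy limbs. Acta1, the skeletal muscle actin, was at 23800, 24000, 27000 and 34600 CPM in injured and 32500, 32900, 37200 and 29700 CPM in healthy limbs. Both were lower in the injured limb of animals 1 to 3 and higher in that of animal 4, and neither passed the test (log2 difference -0.34 ± 0.17 SE for Atp2a1 and -0.27 ± 0.14 SE for Acta1). The CPM are scaled by TMM, and whether the share of abundant genes in a library bears on this pattern was not tested.

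Some genes differed the same way in every animal. Of all genes tested, 658 (4.27%) were higher and 618 (4.01%) lower in the injured limb of 4 of 4 animals. In 134 genes (0.87%) all 4 injured values lay above all 4 healthy values, and in 105 genes (0.681%) all lay below. With so few animals, genes meet these rules by chance alone. Each of these shares was below that expected if every order of the limbs were equally likely. The shares were not tested against chance. The genes named next are the 10 with the smallest p in each direction among separated genes whose mean log2 CPM was at least 1, and they were selected for their values.

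Apod, which encodes the lipid-binding apolipoprotein D and is used as a marker of muscle fibroblasts, had the smallest p of all genes (0.000128, edgeR). It lies on chromosome 16 from 31296192 to 31314808 (GRCm38). Apod was at 44.7, 34.1, 46.2 and 39.5 CPM in the injured limbs of animals 1 to 4, against 26.2, 27.2, 19.5 and 28.5 CPM in their healthy limbs, a log2 difference of 0.70 ± 0.14 SE. Every injured value was above every healthy value, and the means were 41.1 ± 5.48 CPM in injured and 25.3 ± 4.03 CPM in healthy limbs (SD, n = 4 each). Tcf7l2, a transcription factor of Wnt signalling that labels connective tissue fibroblasts in muscle, lies on chromosome 19 from 55741820 to 55933654. Its levels were 5.94, 6.14, 6.94 and 5.54 CPM in injured and 3.0, 4.38, 4.58 and 4.06 CPM in healthy limbs, a log2 difference of 0.62 ± 0.15 SE. Ctnna1, the alpha-catenin that ties cell contacts to actin, was at 58.1 to 76.0 CPM in injured and 49.6 to 57.8 CPM in healthy limbs.

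Genes tied to interferon and innate defence were also among the separated genes. Ifi35, an interferon-induced gene, was at 7.64, 10.2, 7.86 and 6.67 CPM in injured and 4.24, 5.74, 6.12 and 4.89 CPM in healthy limbs, a log2 difference of 0.62 ± 0.16 SE. Apobec3, a cytidine deaminase that restricts retroviruses, was at 8.98, 10.5, 11.3 and 7.43 CPM in injured and 4.09, 3.61, 4.7 and 7.06 CPM in healthy limbs, a log2 difference of 0.97 ± 0.27 SE. In animal 4 the limbs were close for Apobec3. St8sia4, an enzyme that puts polysialic acid on the adhesion molecule NCAM, had a log2 difference of 0.68 ± 0.20 SE. Spag5, a protein of the mitotic spindle, differed by 0.98 ± 0.28, Crybg1 by 1.14 ± 0.33 and Mettl9, a methyltransferase, by 0.45 ± 0.12 on the log2 scale. Exons of Apobec3, Mettl9 and Crybg1 overlap those of other counted genes, and the handling of strand is not given in the sources used here. Reads of the overlapping parts may therefore be shared. The same holds for Prg4, Csf1r, Cxcl10, H2-DMa, Ciita, Myh7, Atp2a1, Pfkm, Esrra, Fbxo32, Igf2 and Notch3, each of which overlaps a counted gene on the other strand.

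The genes separated in the other direction differed by less, by -0.60 to -0.23 on the log2 scale. Nt5c1a, a nucleotidase that makes adenosine from AMP in muscle, was at 5.18, 7.2, 4.89 and 8.23 CPM in injured and 8.91, 10.5, 9.99 and 9.22 CPM in healthy limbs, a log2 difference of -0.60 ± 0.17 SE. Mocs2, an enzyme of molybdenum cofactor synthesis, was at 20, 21.4, 26.3 and 25.3 CPM in injured and 28.4, 30.5, 33.0 and 26.5 CPM in healthy limbs, a log2 difference of -0.35 ± 0.10 SE. Esam, an adhesion molecule of endothelial junctions, was at 17.8, 15.1, 14.4 and 18.1 CPM in injured and 20.7, 20.8, 24.5 and 18.2 CPM in healthy limbs, and animal 4 hardly differed between limbs. The group also held Spr, which makes the cofactor tetrahydrobiopterin, with a log2 difference of -0.31 ± 0.10 SE, and Tet3, an enzyme that oxidizes methylated DNA, with -0.36 ± 0.11 SE. Ppp5c, a protein phosphatase that works with Hsp90, differed by -0.27 ± 0.08 and the centrosomal gene Cep68 by -0.31 ± 0.10. Hivep1, a zinc finger factor, differed by -0.23 ± 0.07, Extl1, of heparan sulfate synthesis, by -0.28 ± 0.09 and Msl3, of a chromatin complex, by -0.33 ± 0.11.

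**Figure D2:**
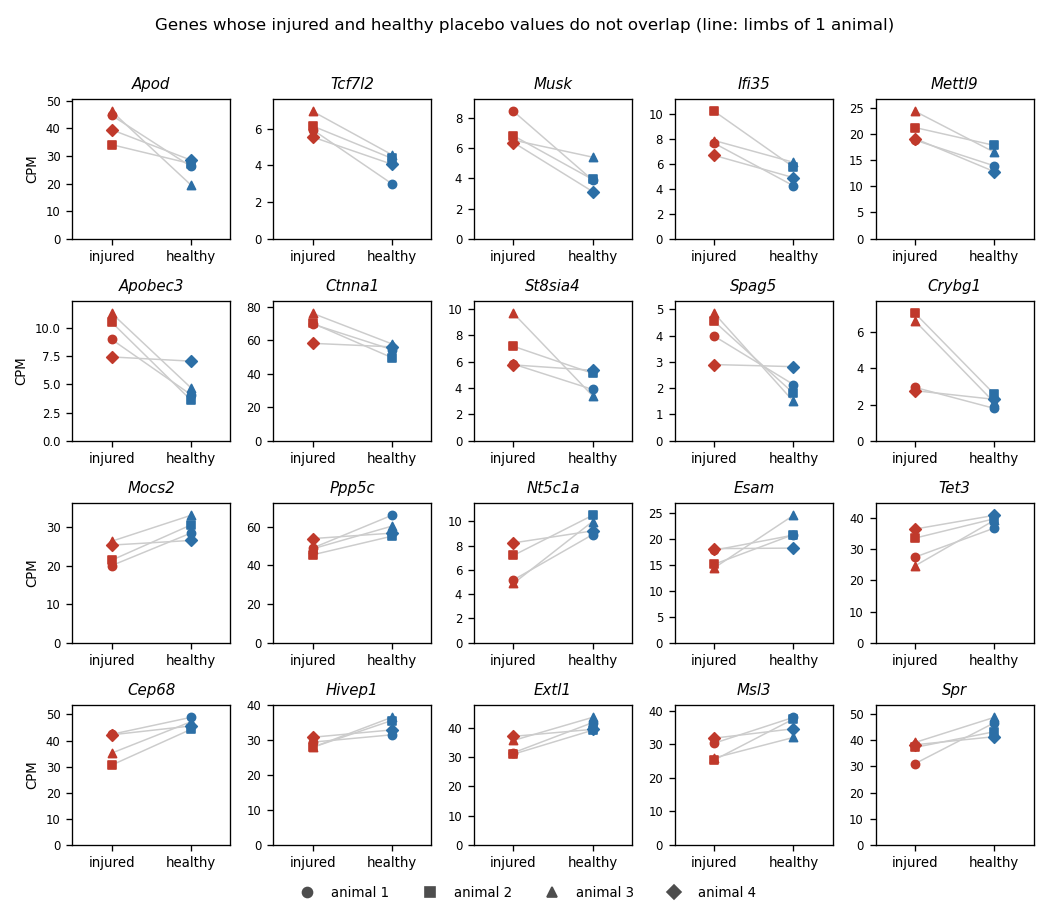
CPM of the 20 named genes whose groups do not overlap, injured at the left in red and healthy at the right in blue, with a marker shape and a line for each animal. The vertical axes start at 0. All 4 lines slope down in the upper 10 panels, such as Apod at 34.1 to 46.2 against 19.5 to 28.5 CPM, and up in the lower 10 panels, such as Mocs2 at 20 to 26.3 against 26.5 to 33.0 CPM.

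The neuromuscular junction gave the other gene that DESeq2 called. Chrna1 encodes the ligand-binding alpha subunit of the muscle acetylcholine receptor and lies on chromosome 2 from 73563215 to 73580338. Chrna1 was at 30.3, 43.3, 56.8 and 14.4 CPM in injured and 13.8, 19.6, 12.9 and 10.4 CPM in healthy limbs, a log2 difference of 1.35 ± 0.31 SE (unadjusted p = 0.000562, edgeR). All 4 animals had more in the injured limb, by 1.13, 1.14, 2.13 and 0.47 on the log2 scale, although injured 4 lay below healthy 2. Musk, the receptor kinase that gathers receptors under the nerve ending, lies on chromosome 4 from 58285960 to 58374303. Musk was at 8.45, 6.83, 6.54 and 6.38 CPM in injured and 3.89, 3.93, 5.41 and 3.13 CPM in healthy limbs, a log2 difference of 0.78 ± 0.20 SE with no overlap. Chrnd, the delta subunit, was at 3.98, 8.94, 9.78 and 2.85 CPM in injured and 2.96, 3.84, 3.7 and 2.25 CPM in healthy limbs, a log2 difference of 1.0 ± 0.37 SE. Chrnb1, the beta subunit, was at 35.8, 32.5, 32.7 and 21.2 CPM in injured and 27.6, 26.9, 19.8 and 16.3 CPM in healthy limbs. The adult epsilon subunit Chrne was at 7.42, 7.56, 7.06 and 12.6 CPM in injured and 8.29, 11.9, 9.4 and 5.25 CPM in healthy limbs, and its order was opposite in animal 4. The fetal gamma subunit Chrng was removed by the filter on low counts, with 0, 384, 431 and 1 counts in injured and 0, 0, 0 and 39 counts in healthy limbs.

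Of the 14 tested genes of the junction list, 9 were higher in injured quadriceps, and the median log2 difference was 0.02, close to that of all genes. Chrna1, Chrnb1, Chrnd, Musk and Nes were higher in 4 of 4 animals and no member was lower in all. The list had 5 of 14 higher and a median of -0.04 without the libraries high in Prg4. The other 9 tested members, among them the genes of agrin and rapsyn, did not have 1 order in all animals. Without the 4 libraries high in Prg4, the log2 difference was 0.53 for Chrna1, 0.74 for Musk, -0.04 for Chrnd and -0.18 for Nes, which encodes the filament protein nestin.

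Receptor genes are known targets of the myogenic factors, which bind E-boxes. Of 5 promoters looked for, 4 were found, and that of Chrnd was missing from the source. Those of Chrnb1 and Chrne were not looked for. The promoters of Chrna1, Chrng, Musk and Myog are shown with each E-box in capitals (CANNTG, which reads the same on both strands). They are from RefSeq on GRCm38.p6, 250 bases before to 50 after the start. Chrna1 lies at chr2:73580289-73580588 on the minus strand, Chrng at chr1:87205561-87205860, Musk at chr4:58285712-58286011 and Myog at chr1:134289754-134290053, all 3 on the plus strand.
Chrna1: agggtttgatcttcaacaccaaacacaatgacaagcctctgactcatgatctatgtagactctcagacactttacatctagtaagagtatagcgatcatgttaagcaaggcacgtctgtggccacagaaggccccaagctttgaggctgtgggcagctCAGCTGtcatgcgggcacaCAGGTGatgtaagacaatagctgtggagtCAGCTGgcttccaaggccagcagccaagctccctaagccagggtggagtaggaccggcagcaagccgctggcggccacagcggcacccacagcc
Chrng: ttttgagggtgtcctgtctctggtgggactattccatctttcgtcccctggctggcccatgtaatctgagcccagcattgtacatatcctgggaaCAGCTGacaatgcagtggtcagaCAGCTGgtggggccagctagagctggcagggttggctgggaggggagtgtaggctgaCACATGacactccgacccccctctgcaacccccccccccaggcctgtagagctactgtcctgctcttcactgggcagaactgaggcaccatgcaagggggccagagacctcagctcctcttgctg
Musk: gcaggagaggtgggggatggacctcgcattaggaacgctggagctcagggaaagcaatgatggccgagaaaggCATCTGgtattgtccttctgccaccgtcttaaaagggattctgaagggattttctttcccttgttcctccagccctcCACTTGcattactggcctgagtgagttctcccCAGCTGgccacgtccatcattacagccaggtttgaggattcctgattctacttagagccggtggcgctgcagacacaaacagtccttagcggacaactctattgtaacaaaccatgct
Myog: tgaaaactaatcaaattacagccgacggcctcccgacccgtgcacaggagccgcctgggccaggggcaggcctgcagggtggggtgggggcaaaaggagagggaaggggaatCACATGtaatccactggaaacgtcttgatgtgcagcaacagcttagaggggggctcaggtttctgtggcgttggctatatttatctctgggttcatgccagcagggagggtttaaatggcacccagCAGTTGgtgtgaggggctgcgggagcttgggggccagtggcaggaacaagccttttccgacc
An E-box was present in 72.3% of all 32851 promoters of this length and 2 or more in 39.5%. The promoters shown held 2 or 3. The form CAGCTG, which is one form of the E-box, occurred in 16.3% of all promoters and at least 2 times in 1.9%. It stood 2 times in Chrna1 and in Chrng, once in Musk and not in Myog. A match is a description of these letters only.

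Genes known to respond to loss of the nerve were higher in 12 of 14 cases, with a median log2 difference of 1.39. Rrad, a small GTPase that holds down calcium channels, was at 6.17, 24.6, 17.6 and 1.09 CPM in injured and 0.817, 1.31, 1.41 and 1.98 CPM in healthy limbs, a log2 difference of 3.16 ± 0.76 SE. Injured 1 to 3 were above every healthy limb, and injured 4 was within their range. Ncam1, the adhesion molecule that covers denervated fibres, was at 5.81, 24.9, 28.2 and 5.58 CPM in injured and 3.7, 4.56, 5.62 and 9.74 CPM in healthy limbs. Ankrd1, a stress-responsive gene of the sarcomere, was at 29.2, 48.8, 33.6 and 5.54 CPM in injured and 7.71, 8.27, 8.65 and 15.2 CPM in healthy limbs. Nrcam, another adhesion molecule, was higher in the injured limb of 4 of 4 animals but under 1 CPM in 7 of 8 libraries. In the list, 5 genes had an unadjusted p under 0.05, and without the libraries high in Prg4 its median was 0.24 with 12 of 14 higher.

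Embryonic muscle genes were highest in injured 2 and injured 3. Myog, the myogenin gene on chromosome 1 from 134289989 to 134292548, was at 5.67, 44.6, 33.7 and 2.94 CPM in injured and 4.01, 3.16, 3.7 and 5.78 CPM in healthy limbs, a log2 difference of 2.39 ± 0.66 SE. Myh3, the embryonic myosin heavy chain on chromosome 11 from 67078300 to 67102291, was at 12.7, 145, 252 and 3.06 CPM in injured and 3.15, 4.52, 2.41 and 14.1 CPM in healthy limbs, a log2 difference of 4.10 ± 1.14 SE. Animal 1 had more of both genes in its injured limb at a far lower level than animals 2 and 3, and animal 4 had less. Tnnt2, a troponin of embryonic and cardiac muscle, and Myl4, an embryonic light chain, differed by 2.89 ± 0.85 and 2.79 ± 0.88 on the log2 scale. Genes of fusion followed the same libraries: Mymx, which encodes myomixer, was at 6.76 and 8.74 CPM in injured 2 and 3, at 0.926 CPM in healthy 4 and under the floor elsewhere. Mymk, which encodes myomaker, had 1, 480, 660 and 2 counts in injured and 3, 0, 10 and 57 counts in healthy limbs and did not pass the filter.

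Of the 8 tested developmental isoforms, 7 were higher in injured quadriceps, with a median log2 difference of 1.48. Without the 4 libraries high in Prg4 the median was 0.05 with 5 of 8 higher, and Myog differed by 0.24. The 12 myogenic factors and fusion genes divided evenly, with 6 higher and a median of 0.07, against 7 higher and a median of 0.03 without those libraries. Dividing cells showed a similar spread: 17 of 20 genes of DNA replication and mitosis were higher, with a median of 0.99, and without those libraries 9 of 20 were higher with a median of -0.05. Mcm4, a subunit of the replicative helicase, was separated between groups at 7.19, 8.83, 6.7 and 5.33 CPM in injured and 3.93, 4.83, 4.29 and 4.94 CPM in healthy limbs, a log2 difference of 0.64 ± 0.19 SE. Ccnb2, a mitotic cyclin, was at 0.0894, 3.56, 2.73 and 0.21 CPM in injured and 0, 0.0452, 0 and 0.75 CPM in healthy limbs, and most of these are near the floor.

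**Figure D3:**
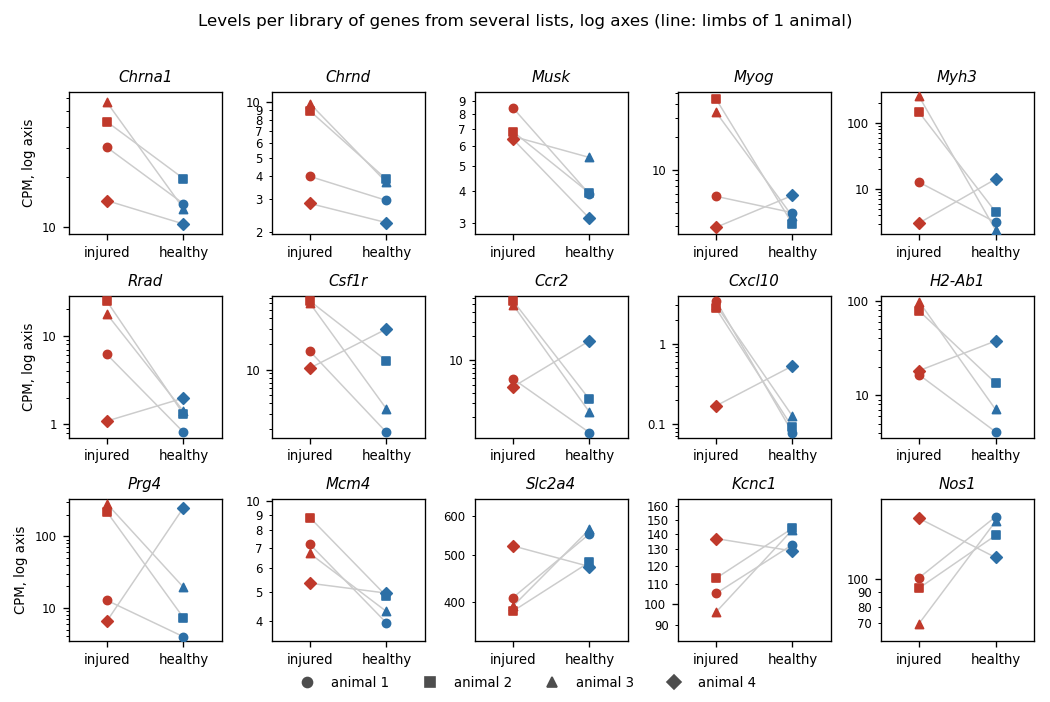
CPM on log axes of 15 genes of junction, regeneration, immune, joint and metabolic lists, injured at the left in red and healthy at the right in blue, with a marker shape and a line for each animal. Chrna1, Chrnd, Musk and Mcm4 slope down in all 4 animals. In the other 11 panels the diamond of animal 4 runs against animals 1 to 3, for example Myh3 at 3.06 CPM in its injured and 14.1 CPM in its healthy limb.

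Of the 43 gene lists, 3 immune lists had the highest medians. All 20 macrophage genes were higher in injured quadriceps, with a median log2 difference of 1.73 and 7 at an unadjusted p under 0.05. Csf1r, the receptor for the growth factor of macrophages and the target of the inhibitor in the other arm, was at 16.4, 63.8, 60 and 10.4 CPM in injured and 1.83, 12.7, 3.45 and 29.9 CPM in healthy limbs, a log2 difference of 1.66 ± 0.79 SE. Cd163, a scavenger receptor of resident macrophages, was higher in every injured limb, at 12.8, 6.07, 14.6 and 8.31 CPM in injured and 1.01, 4.74, 3.66 and 8.03 CPM in healthy limbs. C1qa, of the complement subunit made by macrophages, was at 5.94, 66.8, 51.7 and 5.29 CPM in injured and 1.87, 4.79, 2.83 and 29.4 CPM in healthy limbs. The list's median was 2.08, 3.44 and 4.11 in animals 1 to 3 and -2.15 in animal 4. Without the libraries high in Prg4, 19 of 20 were higher with a median of 0.95, and Aif1, a cytoskeletal marker of macrophages at 0.179, 4.87, 1.88 and 0.126 CPM in injured and 0.0779, 0.136, 0.291 and 0.485 CPM in healthy limbs, then had a log2 difference of -0.14.

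Genes of recruited monocytes and of antigen presentation were also higher in animals 1 to 3 and lower in animal 4. Ccr2, the chemokine receptor that brings monocytes into tissue, was at 5.94, 54.9, 49.0 and 4.7 CPM in injured and 1.28, 3.3, 2.29 and 17.5 CPM in healthy limbs, and 10 of 10 genes of its list were higher with a median of 1.53, which was 0.67 with 9 of 10 higher without the libraries high in Prg4. All 8 genes of antigen presentation by MHC class II were higher, with a median of 1.72, and 7 had an unadjusted p under 0.05. H2-DMa, which loads peptides on class II molecules, was at 2.77, 12.3, 13.5 and 4.74 CPM in injured and 1.63, 2.21, 1.79 and 5.07 CPM in healthy limbs, a log2 difference of 1.64 ± 0.50 SE. H2-Ab1, a class II chain, was at 16.5, 78.7, 98.5 and 18.2 CPM in injured and 4.09, 13.5, 7.07 and 37.6 CPM in healthy limbs. Ciita, the master activator of class II genes, differed by 1.64 ± 0.61 and Spi1, a transcription factor of myeloid cells, by 1.85 ± 0.75 on the log2 scale. The class II list had 8 of 8 higher and a median of 1.11 without the libraries high in Prg4.

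Interferon-stimulated genes were higher in 19 of 19 cases, with a median of 0.65 and 11 at an unadjusted p under 0.05. The median was 0.41, 1.31, 1.43 and -0.57 in animals 1 to 4, and without the libraries high in Prg4 it was 0.40 with 16 of 19 higher. Cxcl10, a chemokine that draws T cells, was at 3.44, 2.76, 3.05 and 0.168 CPM in injured and 0.0779, 0.0904, 0.125 and 0.529 CPM in healthy limbs. Healthy 1 and 2 were under the floor, injured 1 to 3 lay close together, and the log2 difference was 3.5 ± 0.88 SE. Bst2, which tethers viruses to cells, was at 5.45, 21.4, 15.8 and 4.7 CPM in injured and 3.46, 4.2, 3.83 and 8.95 CPM in healthy limbs.

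Complement genes were higher in 12 of 12 cases with a median of 0.75, and in 12 of 12 with a median of 0.95 without the libraries high in Prg4. Their median was 1.22, 0.61, 1.9 and -0.88 in animals 1 to 4, and 2 of the 12 were higher in 4 of 4 animals. C3, the central complement protein, was separated between groups at 155, 91.1, 94.8 and 106 CPM in injured and 61.0, 63.9, 27.4 and 78.0 CPM in healthy limbs, a log2 difference of 0.96 ± 0.44 SE. Of the mast cell proteases, Cma1 was at 3.26, 1.31, 2.97 and 2.35 CPM in injured and 0.272, 1.63, 0.416 and 1.59 CPM in healthy limbs. All 5 mast cell genes were higher, with a median of 0.89 that was 1.70 without the libraries high in Prg4. Neutrophil genes gave 3 of 4 higher, with 4 of 4 without those libraries, and of the T, NK and B cell list only 2 genes could be tested, 1 higher and 1 lower, and both were lower without those libraries.

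**Figure D4:**
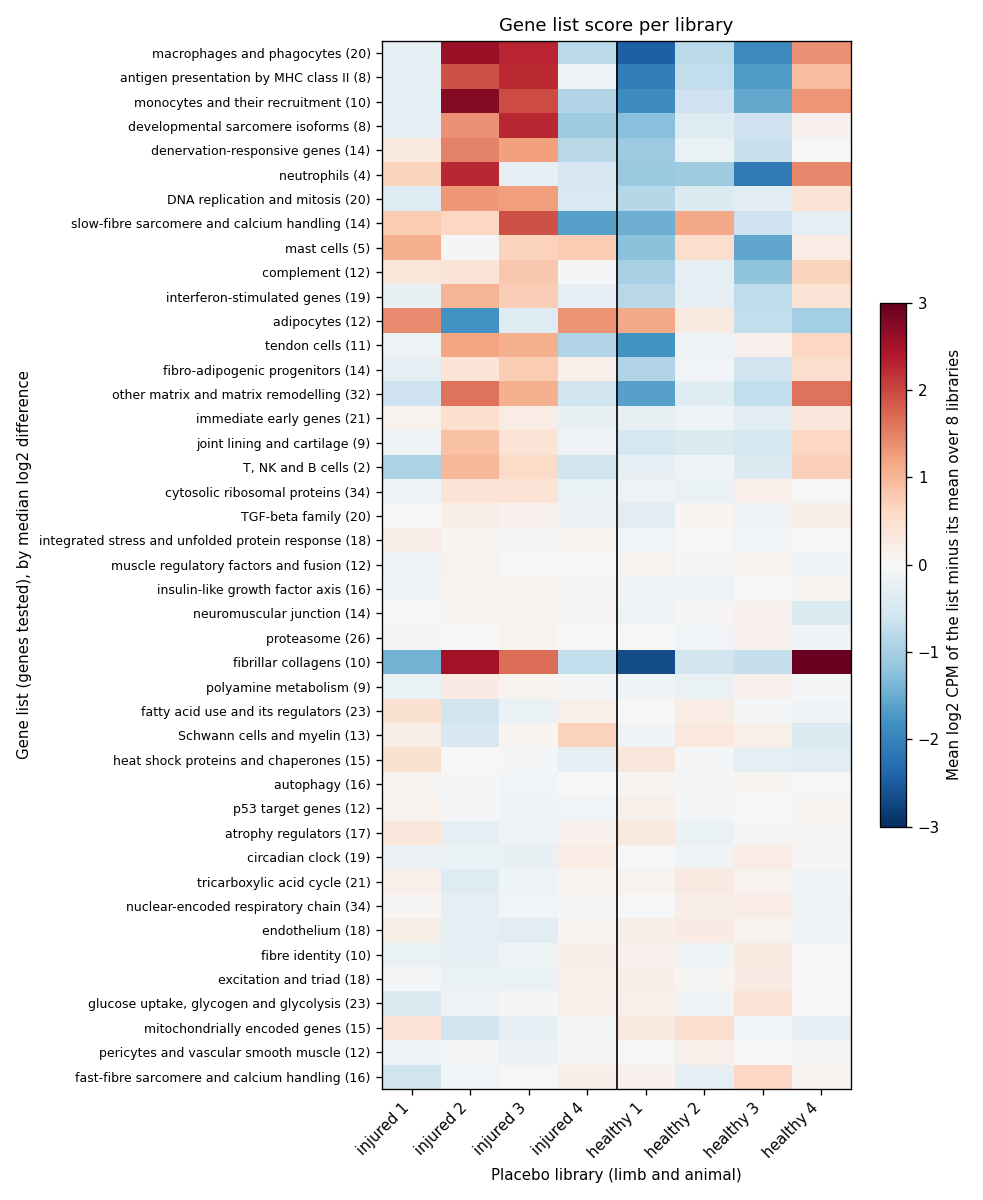
Score of each of 43 gene lists in the 8 placebo libraries, injured at the left and healthy at the right of the black line. For each tested gene, its mean log2 CPM over the 8 libraries was subtracted, and the score is the median over the genes of a list. The colour bar calls it a mean. Lists are ordered from the highest median log2 difference at the top (macrophages, 1.73) to the lowest (fast fibres, -0.23). Injured 2, injured 3 and healthy 4 are red for macrophage, collagen and matrix lists.

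Collagen genes were spread widely within both groups. Col1a1, the main fibrillar collagen gene, was at 44.2, 1470, 656 and 68.7 CPM in injured and 17.2, 75.4, 88.5 and 2090 CPM in healthy limbs, so that healthy 4 was the highest and the log2 difference was -0.02 ± 1.28 SE. Fibrillar collagens divided into 5 higher and 5 lower with a median of 0.02, which was 2.62 with 9 of 10 higher without animal 4 and -0.75 to 2.34 with 1 library left out. The highest of these values came without healthy 4 and the lowest without injured 2. The median was 0.03 with 6 of 10 higher without the libraries high in Prg4. The other matrix genes divided into 28 higher and 4 lower with a median of 0.45, against 31 higher and a median of 0.25 without those libraries. Genes of the fibro-adipogenic progenitors were higher in 14 of 14 cases, with a median of 0.46 that stayed at 0.45 without the libraries high in Prg4. Pdgfra, the receptor that defines these cells, was at 33.4, 41.2, 48.1 and 32.0 CPM in injured and 12.6, 27.1, 15.1 and 44.0 CPM in healthy limbs. Dcn, the small proteoglycan decorin, was at 351, 323, 401 and 272 CPM in injured and 130, 303, 162 and 359 CPM in healthy limbs. Of 11 tendon genes 10 were higher with a median of 0.48, but without the libraries high in Prg4 only 4 were higher and the median was -0.06. Cilp, a matrix protein of that list, was at 51.2, 126, 133 and 25.1 CPM in injured and 12.5, 34.6, 34.3 and 76.9 CPM in healthy limbs. The joint list had 5 of 9 higher with a median of 0.27, and 3 of 9 with a median of -0.02 without those libraries. In it, Chil1, a secreted glycoprotein, was separated above and Col9a1, a cartilage collagen, was lower in 4 of 4 animals, both under 2 CPM in every library.

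Fast-fibre and slow-fibre genes of the contractile apparatus had opposite signs. None of the 16 fast-fibre genes was higher, and their median log2 difference was -0.23. Their median was -0.67, 0.17, -0.60 and 0.15 in animals 1 to 4, so that animals 2 and 4 had the higher level in the injured limb. Myh4, the fastest adult myosin, was at 30500, 42700, 46100 and 67400 CPM in injured and 55100, 37600, 79400 and 60700 CPM in healthy limbs, a log2 difference of -0.32 ± 0.25 SE. Slow-fibre genes were higher in 12 of 14 cases with a median of 0.93, which was 2.46, -0.55, 2.01 and -1.23 in animals 1 to 4. Myh7, the slow myosin, was at 426, 473, 1510 and 18.0 CPM in injured and 26.8, 768, 123 and 264 CPM in healthy limbs, and the groups overlapped throughout. Without the libraries high in Prg4 the slow-fibre median was -0.05 with 7 of 14 higher and the fast-fibre median was -0.30 with 2 of 16 higher.

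Genes of excitation and of the triad, where the electrical signal opens calcium stores, were lower in 17 of 18 cases with a median of -0.22, and in 16 of 18 with a median of -0.13 without the libraries high in Prg4. Kcnc1, a potassium channel, was at 105, 113, 95.9 and 137 CPM in injured and 133, 144, 143 and 129 CPM in healthy limbs, a log2 difference of -0.28 ± 0.10 SE. Kcna7, another potassium channel, differed by -0.32 ± 0.13 on the log2 scale. Of 23 genes of glucose use, 21 were lower with a median of -0.22, and 21 with a median of -0.25 without those libraries. Slc2a4, the insulin-dependent glucose transporter GLUT4, was at 409, 384, 393 and 521 CPM in injured and 551, 483, 563 and 473 CPM in healthy limbs, a log2 difference of -0.28 ± 0.10 SE. Pfkm, the muscle phosphofructokinase, was at 1880, 2190, 2280 and 2990 CPM in injured and 2680, 2650, 3440 and 2680 CPM in healthy limbs. For Kcnc1, Slc2a4 and Pfkm, injured 1 to 3 were the low libraries, and animal 4 had the higher level in its injured limb. In animals 1 to 4 the median was -0.58, 0.0, -0.43 and 0.16 for the glucose list, which was thus not lower in animal 2. For the excitation list it was -0.28, -0.24, -0.52 and 0.16.

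Genes of mitochondrial respiration were also lower, mainly in animals 2 and 3. All 34 nuclear genes of the respiratory chain were lower with a median of -0.17, and 20 of 21 genes of the tricarboxylic acid cycle were lower with a median of -0.15. Of all 869 genes with a mean log2 CPM of at least 7, 16.3% were higher, with a median of -0.15. These medians were thus close to that of abundant genes at large. The fast-fibre, excitation and glucose lists above, at -0.23, -0.22 and -0.22, are to be read beside the same class. In animals 1 to 4 the median was 0.02, -0.44, -0.35 and 0.18 for the chain and 0.05, -0.64, -0.23 and 0.22 for the cycle. Mdh2, the mitochondrial malate dehydrogenase, was at 469, 363, 395 and 488 CPM in injured and 510, 558, 512 and 431 CPM in healthy limbs. Uqcrfs1, the iron-sulfur subunit of complex III, differed by -0.22 ± 0.11 on the log2 scale. Of 15 genes of the mitochondrial genome 13 were lower with a median of -0.22, and mt-Nd1 was at 14000, 9820, 11800 and 12400 CPM in injured and 15700, 16300, 13200 and 11000 CPM in healthy limbs. Fatty acid genes divided into 11 higher and 12 lower, and Esrra, a nuclear receptor that controls mitochondrial genes, was lower in 4 of 4 animals with a log2 difference of -0.32 ± 0.14 SE. Without the libraries high in Prg4 the median was -0.14 for the respiratory chain (1 of 34 higher), -0.06 for the cycle (6 of 21), -0.06 for the mitochondrial genome (5 of 15) and 0.24 for fatty acid genes (20 of 23).

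Genes of protein breakdown had no common sign. Of 17 atrophy regulators, 6 were higher and 11 lower, with a median of -0.06, but without the libraries high in Prg4 13 were higher and the median was 0.11. Trim63, the ubiquitin ligase MuRF1, was at 249, 140, 183 and 212 CPM in injured and 230, 118, 232 and 185 CPM in healthy limbs. Fbxo32, the ubiquitin ligase atrogin-1, was at 781, 314, 376 and 730 CPM in injured and 832, 426, 690 and 573 CPM in healthy limbs, a log2 difference of -0.19 ± 0.35 SE. The metal-binding metallothionein genes in this list stood apart from the ligases: Mt1 was at 14.2, 19.2, 17.0 and 7.64 CPM in injured and 5.14, 8.54, 4.87 and 11.2 CPM in healthy limbs, and Mt2 differed by 1.80 ± 0.66 on the log2 scale. Foxo4, a transcription factor of the atrophy programme, was at 176, 174, 152 and 213 CPM in injured and 237, 189, 254 and 205 CPM in healthy limbs. The proteasome had 18 of 26 subunits higher with a median of 0.02, Psma7 among them at 0.23 ± 0.10, and autophagy 4 of 16 with a median of -0.04. Without the libraries high in Prg4 these were 13 of 26 with a median of -0.01 and 10 of 16 with a median of 0.05. In the insulin-like growth factor list, 10 of 16 were higher with a median of 0.07, and 9 without those libraries with the same median. Igf2, a fetal growth factor, was at 21.1, 59.1, 106 and 16.8 CPM in injured and 23.6, 17.1, 21 and 29 CPM in healthy limbs.

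Of the lists of stress genes, the p53 targets held 1 separated gene. Eda2r, a p53 target and receptor of the TNF family, was at 42.4, 21.1, 17.6 and 14.5 CPM in injured and 12.7, 9.67, 14.4 and 13.3 CPM in healthy limbs, a log2 difference of 0.93 ± 0.30 SE. Of the 12 p53 targets, 8 were lower with a median of -0.06, and without the libraries high in Prg4 6 were higher and the median was 0.00. Cdkn1a, the cell cycle inhibitor p21, was at 62.5, 64.1, 58.2 and 16.5 CPM in injured and 46.7, 20.8, 16.9 and 21 CPM in healthy limbs. Of 18 genes of the integrated stress and unfolded protein response, 12 were higher with a median of 0.08, and 14 with a median of 0.17 without those libraries. Mthfd2, of mitochondrial one-carbon metabolism, differed by 0.80 ± 0.26, Psat1, of serine synthesis, by 1.41 ± 0.55 and Nupr1, a stress-induced regulator, by 0.92 ± 0.37 on the log2 scale. Of 21 immediate early genes 19 were higher with a median of 0.35, and 15 with a median of 0.14 without those libraries, with Klf6, a zinc finger factor, at 0.37 ± 0.15. All 34 cytosolic ribosomal protein genes were higher with a median of 0.20, which was -0.08 with 10 of 34 higher without the libraries high in Prg4.

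Polyamine genes divided into 5 higher and 4 lower, with 3 of 9 higher and a median of -0.18 without the libraries high in Prg4. Odc1, the enzyme that starts polyamine synthesis, was at 64.9, 57.4, 51.0 and 40.0 CPM in injured and 43.4, 41.8, 48.1 and 40.1 CPM in healthy limbs, and Sat1, which breaks polyamines down, differed by 0.63 ± 0.29 on the log2 scale. The TGF-beta list had 15 of 20 higher with a median of 0.13, and 15 with a median of 0.10 without those libraries, and its signal transducer Smad2 was separated at 15.7, 17.1, 16.6 and 16.4 CPM in injured and 14.4, 13.6, 13.9 and 15.5 CPM in healthy limbs. Of 19 clock genes, 15 were lower with a median of -0.08, but without those libraries 10 were higher and the median was 0.03. Npas2, a partner of the clock activator, was separated at 2.99, 2.33, 1.88 and 1.51 CPM in injured and 1.28, 1.22, 0.416 and 1.32 CPM in healthy limbs. The clock repressor Cry1 was lower in 4 of 4 animals, at 13.0, 10.5, 11.8 and 13.8 CPM in injured and 23.4, 15.2, 13.3 and 14.8 CPM in healthy limbs. Heat shock genes had 7 of 15 higher and a median of 0, and 11 of 15 with a median of 0.07 without those libraries.

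Vessels, nerve sheath and fat completed the tissue. Of 18 endothelial genes 17 were lower with a median of -0.18, Aqp1, a water channel, at 300, 176, 207 and 302 CPM in injured and 310, 314, 307 and 276 CPM in healthy limbs. Of 12 genes of pericytes and vascular smooth muscle 9 were lower with a median of -0.22. In animals 1 to 4 the median was 0.01, -0.49, -0.49 and 0.17 for endothelial genes. It was 0.03, -0.31, -0.18 and 0.11 for genes of pericytes and vascular smooth muscle, so that both lists were lower mainly in animals 2 and 3. Notch3, the receptor of mural cells, was separated at 24.5, 23.2, 21.9 and 25.6 CPM in injured and 25.7, 27.7, 29.5 and 27.9 CPM in healthy limbs. Schwann cell genes divided into 7 higher and 6 lower. Adipocyte genes were higher in 10 of 12 cases with a median of 0.50, and their median was 0.24, -2.22, 0.62 and 2.23 in animals 1 to 4. Without the libraries high in Prg4 the median was -0.05 for endothelial genes (7 of 18 higher), -0.17 for mural genes (2 of 12), 0.26 for Schwann cell genes (10 of 13) and 0.91 for adipocyte genes (11 of 12).

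**Figure D5:**
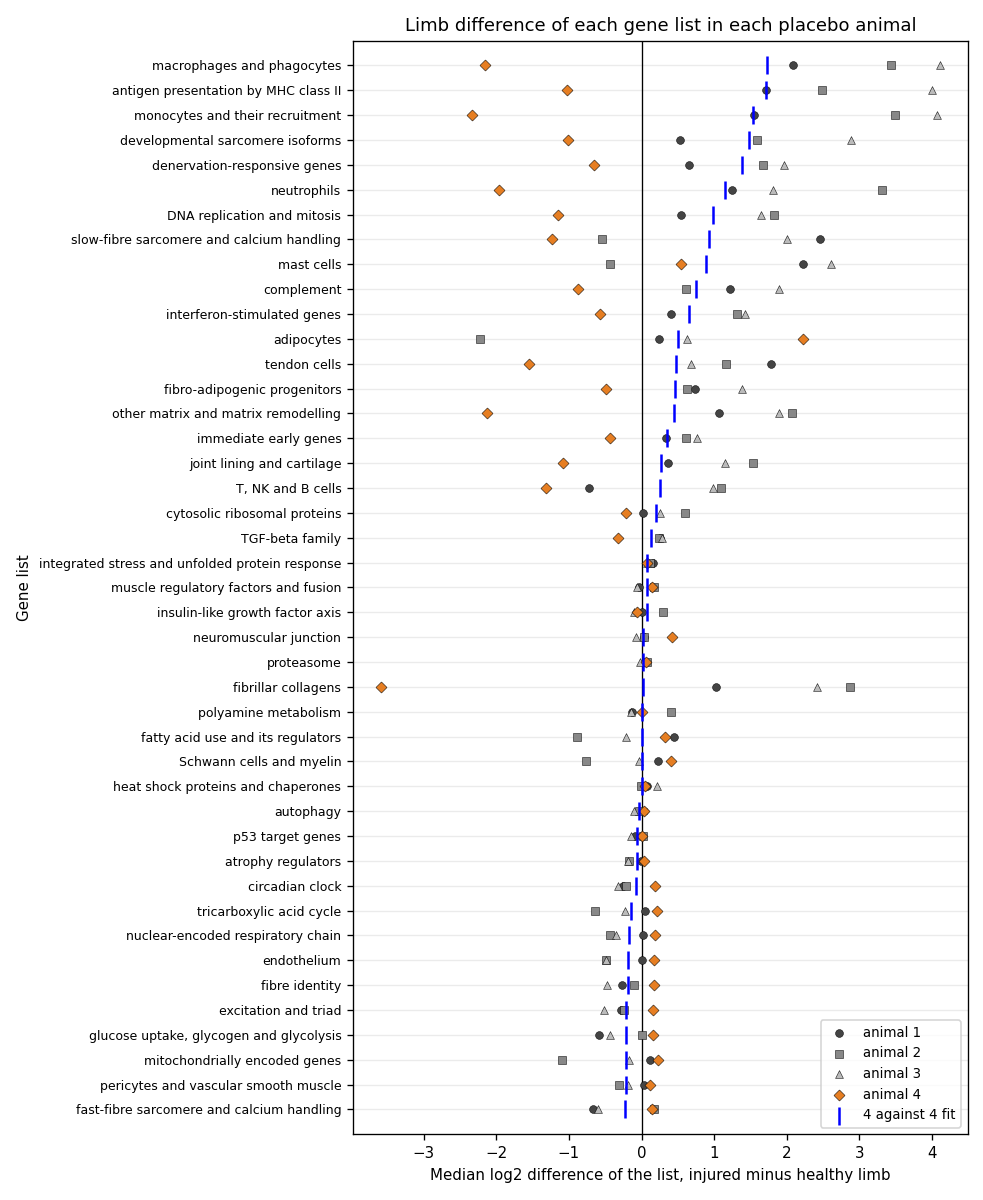
Median log2 difference between the injured and the healthy limb for each of 43 gene lists, with a marker for each animal, orange diamonds for animal 4 and a blue bar for the fit of 4 against 4 libraries. In 18 lists animals 1 to 3 lie above 0, and in 17 of these animal 4 lies below 0. In 4 lists animals 1 to 3 lie below 0 and animal 4 lies above.

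The fit without both limbs of animal 4 was made to show how much of the above rests on it. That animal was known to run against the others, so the fit describes animals 1 to 3, and its p-values are too small. It called 826 genes higher (5.36%) and 155 lower (1.01%) in injured quadriceps, and 948 of these 981 genes (96.6%) had the opposite sign in animal 4. Of the lists, 17 of 20 macrophage genes, 8 of 8 class II genes, 8 of 19 interferon-stimulated genes, 14 of 32 other matrix genes and 5 of 14 denervation-responsive genes were called higher. Of the 18 genes of excitation and triad 3 were called lower and of 23 genes of glucose use 2, while 0 of 34 respiratory chain genes and 0 of 16 fast-fibre genes were called.

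Genes with small p in that fit, chosen after their values were seen, included C5ar1, the receptor for the complement fragment C5a. C5ar1 was at 3.66, 9.85, 6.62 and 1.01 CPM in injured and 0.389, 0.407, 0.499 and 6.31 CPM in healthy limbs, with a log2 difference of 3.94 ± 0.40 SE without animal 4 and 1.48 ± 0.81 SE with it. Alox5ap, which activates leukotriene synthesis, was at 3.22, 13.7, 13.6 and 1.22 CPM in injured and 0.973, 1.22, 0.874 and 5.82 CPM in healthy limbs. Hpgd, which degrades prostaglandins, was at 5.81, 4.54, 7.1 and 1.55 CPM in injured and 1.32, 1.36, 1.12 and 4.1 CPM in healthy limbs. Abcg1, a cholesterol exporter of macrophages, was at 2.64, 13.2, 10.9 and 2.64 CPM in injured and 1.4, 1.36, 1.46 and 3.57 CPM in healthy limbs. Each of these was higher in injured 1 to 3 and lower in injured 4 than in the healthy limb of the same animal.

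Among fibre genes of that fit, Nos1, the nitric oxide synthase of the fibre membrane, was at 101, 93.0, 69.9 and 163 CPM in injured and 165, 142, 159 and 119 CPM in healthy limbs, with a log2 difference of -0.82 ± 0.13 SE without animal 4 and -0.46 ± 0.19 SE with it. Pdk2, a kinase that holds back pyruvate oxidation, was at 374, 309, 355 and 490 CPM in injured and 489, 455, 538 and 431 CPM in healthy limbs. Vamp1, a vesicle fusion protein, was at 22.3, 18.8, 21.7 and 27.5 CPM in injured and 36.2, 34.2, 29.6 and 22.9 CPM in healthy limbs. Leaving out injured 4 alone gave 3 calls, Chrna1 and Cpne2 higher and Fam57b lower. Cpne2, a calcium-dependent lipid-binding protein, was at 15.1, 12.6, 14.3 and 4.74 CPM in injured and 4.52, 4.47, 5.37 and 7.76 CPM in healthy limbs. Fam57b was at 32.7, 26.5, 28.1 and 50.1 CPM in injured and 63.9, 55.3, 62.4 and 43.2 CPM in healthy limbs. Both genes had narrow ranges in animals 1 to 3 and the opposite order in animal 4.

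The placebo limbs were last set beside those of the inhibitor animals, where the same injury was compared between limbs. The difference of the injury effects called 0 of 15411 genes (0%), and 423 genes (2.74%) had an unadjusted p under 0.05, with 0 calls by DESeq2 and limma-voom. Apod had an injury difference of 0.70 ± 0.14 with placebo and -0.14 ± 0.14 with inhibitor, Tcf7l2 of 0.62 ± 0.15 and -0.28 ± 0.15, and Ifi35 of 0.62 ± 0.16 and -0.34 ± 0.16 (log2, SE). The differences of these effects had unadjusted p of 0.000606, 0.000721 and 0.000661 in edgeR, and each had an adjusted p of 0.998. Chrna1 differed by 1.35 ± 0.31 with placebo and 0.23 ± 0.31 with inhibitor, and Musk by 0.78 ± 0.20 and 0.04 ± 0.19. Since these genes were selected for the placebo difference, a smaller value in other animals is a description. Of 20 macrophage genes 10 were higher in injured limbs with inhibitor, with a median of 0.01, and of 34 respiratory chain genes 28 were higher, with a median of 0.08. Slow-fibre genes had medians of 0.93 with placebo and 0.73 with inhibitor. Without placebo animal 4, C5ar1 was called for the difference of the effects, at 3.83 ± 0.50 SE (edgeR adjusted p = 0.02). That animal was left out because it ran against the others, so this p-value is too small.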

How the data were processed

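The values are expected counts per Ensembl gene, deposited by the authors without normalization, for 17370 genes. The submitters' processing notes name the tools STAR, DESeq2 and Partek and the build GRCm38 (mm10); roles and versions are not given in the sources used here. Each gene reached 10 counts in some library. Counts were rounded to whole numbers; 33.8% were not whole. EdgeR 4.0.16 (R 4.3.3) removed 1959 genes (filterByExpr, minimum count 10), scaled by TMM and fitted the 4 group means to all 16 libraries with 12 residual degrees of freedom. Common biological coefficient of variation was 0.284. List scores and limb differences used log2 CPM with a prior count of 2. Symbols and positions came from GENCODE M21 on GRCm38. The fitting code was tested on simulated data.

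Genes named are up to 10 separated genes per direction by p (mean log2 CPM 1 or more), the 3 members of each list with the smallest p, and 14 fixed genes. Further genes were chosen after their values were seen. The 43 lists held 714 entries, of which 676 were tested. Members and lists were chosen with earlier results of these data known. Alternatives were DESeq2 1.42.0, its size factors, limma 3.58.1, no filter, the 8 placebo libraries, the animal block, and libraries left out. Limbs were paired by the stem of the library name, although the design text describes muscle prior to and following transection. The correlation of the paired deviations was 0.47, -0.18, -0.11 and -0.53 in animals 1 to 4. Figures used matplotlib 3.10.9.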

Additional observations from a re-analysis of the deposited data

Results flagged for a closer look

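In groups of 4 libraries, a value was singled out where its gap to the nearest other, divided by the range of the group, was above Dixon's 95% critical value for 4 samples. Of 196 groups from 98 named genes, 22 met this, and chance gives about 1 in 20. Healthy 4 was the highest of its group in 16 of them: Ccr2 at 17.5, C1qa at 29.4, Col1a1 at 2090, Prg4 at 251, Cxcl10 at 0.529, Bst2 at 8.95, H2-DMa at 5.07, Ciita at 2.87, Ankrd1 at 15.2, Mymx at 0.926, Mt2 at 7.41, Ccnb2 at 0.75, C5ar1 at 6.31, Alox5ap at 5.82, Hpgd at 4.1 and Abcg1 at 3.57 CPM. Healthy 4 was also the lowest for Aqp1, at 276 CPM. The other values were Chrne at 12.6 CPM in injured 4, where it was the highest, Cdkn1a at 16.5 CPM in injured 4, the lowest, and at 46.7 CPM in healthy 1, the highest. Pfkm was highest at 3440 CPM in healthy 3, and Npas2 lowest there at 0.416 CPM. The genes were partly chosen for their values, so these counts are a description.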

How the results depend on the processing

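The count of called genes was 0 with no low-count filter, DESeq2 size factors, limma-voom with quality weights, the 8 placebo libraries alone, the animal as a replicate block and the 4 Prg4-high libraries left out. It was 2 with DESeq2, 0 to 3 with each placebo library left out, and 981 without both limbs of animal 4. Genes with an unadjusted p under 0.05 numbered 1116, and 417 in the 8 placebo libraries, 234 with the replicate block in those 8, 888 with the block in 16, 3025 with limma-voom, 596 without the Prg4-high libraries, 3645 without animal 4 and 478 to 2506 with each library left out: 478 without injured 2, 504 without injured 3, 655 without healthy 1, 714 without healthy 3, 1940 without injured 1, 2429 without injured 4 and 2506 without healthy 4. The 239 separated genes became 404 to 1207 with 1 library left out, 2373 without the Prg4-high libraries and 2788 without animal 4, where fewer libraries must separate (settings chosen after seeing the data). The difference of the injury effects called 0 in every fit but the one without animal 4, which called 1, and could not be fitted in 8 libraries. Log2 differences turned sign without the Prg4-high libraries for Myh7 (-0.47), Fbxo32 (0.21), Prg4 (-0.09), Aif1 (-0.14), Chrnd (-0.04), Nes (-0.18), Chrne (0.02) and Igf2 (-0.12). Col1a1 was 1.71 and 1.73 with the block in 16 and 8 libraries, 3.58 without animal 4, 2.06 with limma-voom and -1.15 to 3.21 with a library left out. Trim63 was -0.02 without animal 4, -0.05 with limma-voom and -0.14 to 0.17 with a library left out, and Chrne -0.24 to 0.18. Of 1666 such values for 98 named genes, 1581 did not turn sign and stayed uncalled, 61 crossed into a call (56 of them without animal 4) and 24, in 10 genes, turned sign. No gene was called in the main fit, so staying uncalled says little, and the size of a difference did not count. Myog is among the 1581 at 0.24 without the Prg4-high libraries, against 2.39 in the main fit. Of 731 list medians, 26 in 20 lists moved by more than the spread between libraries, 10 of them without animal 4 and 9 without the Prg4-high libraries. The block changed no call. Cause was not tested. Depth limits genes near the floor of 3 counts.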
